A study of Caenorhabditis elegans with 2 samples.

Results

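Cell cycle and DNA replication genes were examined for binding of LET-526 in whole young adult Caenorhabditis elegans. The set was a list of 32 genes, of 19973 protein-coding genes on chromosomes I to V and X, and all 32 were matched to the annotation by symbol. They were placed in 4 roles: 6 replication fork genes, 10 origin licensing genes, 8 cyclin and cyclin-dependent kinase (CDK) genes, and 8 mitotic genes. LET-526 corresponds to mammalian ARID1 proteins, subunits that bring DNA binding to the nucleosome-remodelling SWI/SNF complex. It was measured by chromatin immunoprecipitation with sequencing (ChIP-seq) in strain RW12306, in which CRISPR was used to insert a TY1::EGFP::3xFLAG tag at let-526. The sample descriptions name an anti-GFP antibody, while the antibody field names let-526. There was 1 group, with 2 biological replicates of that 1 strain. The worms were young adults with a stated age of 60 hours, and they had been synchronised by bleaching and starvation at the L1 larval stage. Every value comes from the tagged protein, and no untagged or input library was analysed here. Whole worms mix all tissues, so a peak cannot be assigned to germline or somatic cells.

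A cell prepares to copy its DNA by licensing origins. The origin recognition complex, CDC-6 and CDT-1 load the MCM helicase. At the fork RPA coats single-stranded DNA and PCNA holds the polymerases in place. Cyclins with their CDKs drive the steps of the cycle, Polo and Aurora kinases run mitosis, and the anaphase-promoting complex ends it. In many animals E2F/DP factors regulate replication genes, and a complex that includes LIN-54 regulates mitotic genes. In adult worms the germline is the main place where cells still divide.

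The data are peak lists on the ce11 assembly (WBcel235). A thresholded list holds peaks that passed the authors' limit on the irreproducible discovery rate (IDR), a measure of how poorly a peak recurs, of about 0.01. The optimal and conservative lists use both replicates, and each replicate has a list of its own. A ranked list holds weak and strong peaks alike, each with its IDR. An IDR in the list of 1 replicate cannot show that a peak recurs in the other replicate. Some optimal peaks overlap no peak of the replicate 2 ranked list, so their IDR need not show recurrence in both replicates. Signal is the peak caller's own value for a peak and can be compared within 1 list only. A promoter peak means a summit inside a window that opened 1000 bp before the outermost annotated start of a gene and closed 200 bp after it. The thresholded lists held 1200 optimal, 1077 conservative, 585 replicate 1 and 421 replicate 2 peaks. The ranked lists held 81275, 78700, 46104 and 49296 peaks in the same order. The lists hold no read counts, so the depth of the libraries is unknown.

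Promoter sequences are shown for 4 members that bear on the results. The pcn-1 sequence is a whole peak that passed the threshold (chrIV:4049563-4049832, ce11, minus strand, as the gene). The other sequences lie under weaker summits, at mcm-2 (chrII:12006838-12006958, minus strand), orc-1 (chrIII:10642918-10643038, plus strand) and cki-1 (chrII:7810760-7810880, plus strand). Each of these has its summit at base 61 of 121. Capitals mark every match on either strand to the motifs GCGGGAA and GCGCGAA (E2F/DP), TTTGAA and TTCGAA (LIN-54), GAGAGA and TATAAA.
pcn-1: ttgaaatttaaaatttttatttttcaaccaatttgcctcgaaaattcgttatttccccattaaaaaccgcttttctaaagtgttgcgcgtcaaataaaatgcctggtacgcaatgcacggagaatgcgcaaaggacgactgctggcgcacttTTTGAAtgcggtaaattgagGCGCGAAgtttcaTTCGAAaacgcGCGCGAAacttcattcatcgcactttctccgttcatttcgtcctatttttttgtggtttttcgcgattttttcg
mcm-2: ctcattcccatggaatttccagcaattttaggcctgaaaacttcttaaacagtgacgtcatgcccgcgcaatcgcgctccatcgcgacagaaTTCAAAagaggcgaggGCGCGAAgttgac
orc-1: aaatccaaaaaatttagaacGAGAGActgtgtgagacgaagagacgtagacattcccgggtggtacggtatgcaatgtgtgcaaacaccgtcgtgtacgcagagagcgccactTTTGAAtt
cki-1: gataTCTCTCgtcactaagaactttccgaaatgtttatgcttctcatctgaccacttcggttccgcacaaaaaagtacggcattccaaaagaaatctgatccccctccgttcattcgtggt
In the pcn-1 peak GCGCGAA stands on both sides of a TTCGAA, and all its capitals lie downstream of the summit, which is base 135 of 270. The mcm-2 stretch also holds GCGCGAA, and the orc-1 and cki-1 stretches hold neither E2F/DP motif. The orc-1 promoter has an E2F/DP match at −71 bp from the start, beyond the bases printed and within the 300 bases round its summit.

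Promoter peaks were found at rpa-2 and pcn-1, which both work at the replication fork. In the optimal list 2 of the 32 members had a promoter peak (6.25%), against 3.32% of all protein-coding genes. The same 2 genes were the members called in the conservative list (3.16% of all genes), in replicate 1 (1.83%) and in replicate 2 (1.35%). They are 2 of the 6 replication fork genes. In each of the 4 thresholded lists, 0 of 10 licensing, 0 of 8 cyclin and CDK, and 0 of 8 mitotic genes had a promoter peak. With 8 to 10 genes in a role and a background of 3.32%, a count of 0 says little about that role. A count of 2 among 32 members or 6 fork genes is small as well, and neither was tested.

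rpa-2 encodes a subunit of RPA (WBGene00019767, chromosome I, 4770292 to 4771358). Its promoter peak had a signal of 409.0 in the optimal list, where it ranked 5 of 1200. The signal was 232.1 in replicate 1 and 165.4 in replicate 2, each with an IDR of 1e-05. The replicate summits lay 5 and 0 bp from the combined summit. In each of the 4 ranked lists, 6 of 19973 genes had a stronger window summit. The peak (4769562 to 4769734) was intergenic, and its summit lay 648 bp upstream of the annotated start. No other protein-coding window held it, and the next protein-coding gene upstream, kin-35, lay 4978 bp from the rpa-2 start. A lincRNA gene on the minus strand, M04F3.7, starts at −581 bp from the summit, so its start is closer to the summit than that of rpa-2. Its part in the peak was not tested. With the window shortened to 500 bp upstream and 100 bp downstream, the rpa-2 peak fell outside it.

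pcn-1 encodes PCNA, the sliding clamp (WBGene00003955, chromosome IV, 4047937 to 4049448). Its peak had a signal of 144.8 in the optimal list, where it ranked 170 of 1200. The signal was 79.1 in replicate 1 (IDR 0.000322) and 55.6 in replicate 2 (IDR 0.00203). The replicate summits lay 6 and 1 bp from the combined one, and the combined one lay 250 bp upstream of the start. It was intergenic and lay in no other protein-coding window. A stronger window summit was found at 137 genes in the optimal ranked list, 144 in replicate 1 and 201 in replicate 2. Neither called member thus shared its peak with the window of another protein-coding gene; windows of noncoding genes were not counted. Of all 522 promoter summits in the optimal list, 158 (30.3%) were shared between the windows of several genes.

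**Figure D1:**
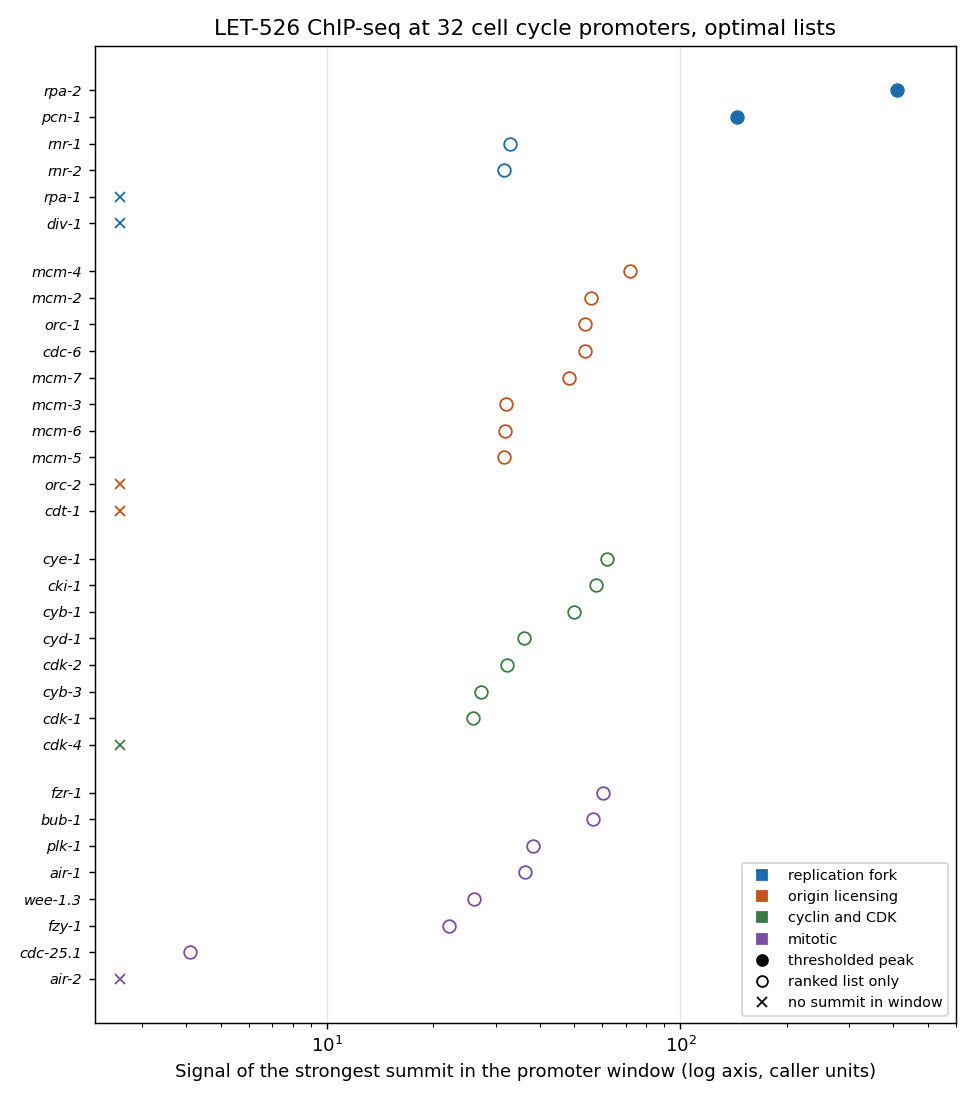
Signal of the strongest summit in the promoter window of each of the 32 members (x axis, log scale, peak caller's units) in the optimal lists, by role. Filled points are thresholded peaks, open points are in the ranked list only, and crosses mark members with no summit in the window; rpa-2 at 409.0 and pcn-1 at 144.8 stand above the other 24 points, which run between 4.1 and 71.9.

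The other replication fork genes carried weak summits or none. rnr-1, the large subunit of ribonucleotide reductase, had a signal of 33.0 in the optimal ranked list (IDR 0.656) and 22.5 in replicate 1, with no window summit in replicate 2. rnr-2, its small subunit, had 31.6 (IDR 0.652) and 19.0 in replicate 2, with none in replicate 1. rpa-1, the large RPA subunit, had a window summit in the conservative ranked list alone (19.4, IDR 0.827), in contrast to rpa-2. div-1, a subunit of DNA polymerase alpha, had none in any of the 4 ranked lists. The signals of rnr-1 and rnr-2 were close to the median of all genes with a window summit in the optimal ranked list, which was 33.8.

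Weak summits were common at the members. In the optimal ranked list 26 of 32 members had a window summit (81.2%), against 65.5% of all protein-coding genes. The counts were 29 of 32 in the conservative ranked list (90.6%, against 64.2%), 22 of 32 in replicate 1 (68.8%, against 47.3%) and 18 of 32 in replicate 2 (56.2%, against 50.1%). All 4 ranked lists held a window summit for 14 members (43.8%), against 29.6% of all genes. Both replicates alone held one for 14 members. For those 14, signals in the 2 replicates had a Spearman rho of 0.49, and of 0.18 over the 12 without rpa-2 and pcn-1. Over the 6223 genes with a window summit in both replicates the same rho was 0.42. Each signal is that of the strongest summit in the window of its own list, so the 2 replicates need not give the same peak. The points share their libraries, and the values are descriptions.

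**Figure D2:**
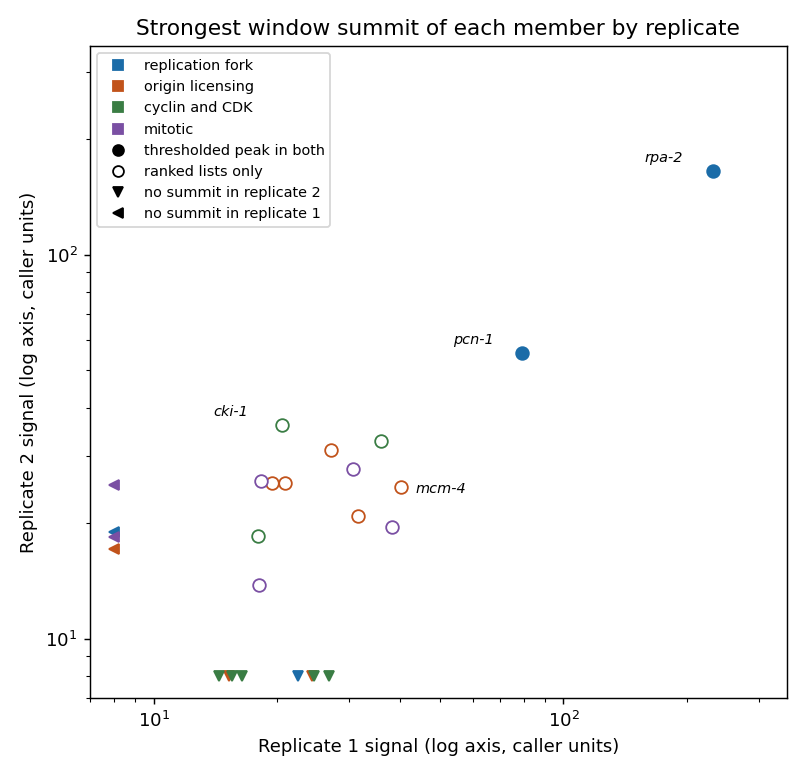
Strongest window summit of each member in replicate 1 (x axis) and replicate 2 (y axis), both on log axes in the peak caller's units. Filled points passed the threshold in both replicates and triangles at the edges mark members with a summit in 1 replicate only; rpa-2 (232.1 and 165.4) and pcn-1 (79.1 and 55.6) lie apart from the rest.

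Members were also placed among all genes by their strongest window summit in the optimal ranked list, with a gene that has none placed at 0. Any window summit thus ranks above all genes without one. Of all genes 65.5% had one in the optimal ranked list, 47.3% in replicate 1 and 50.1% in replicate 2. The members had a median percentile of 65.0 in the optimal ranked list. At or above percentile 90 were 10 members (31.2%), against 1997 of 19973 genes, a share that the percentile fixes. By role the 10 were 2 fork, 4 licensing, 2 cyclin and CDK and 2 mitotic genes. In the ranked list of each replicate alone 6 members were that high (18.8%). In the optimal ranked list the median percentile was 64.4 for fork, 75.7 for licensing, 67.7 for cyclin and CDK and 61.9 for mitotic genes. The roles overlapped over nearly the whole range, and no role was tested against another.

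**Figure D3:**
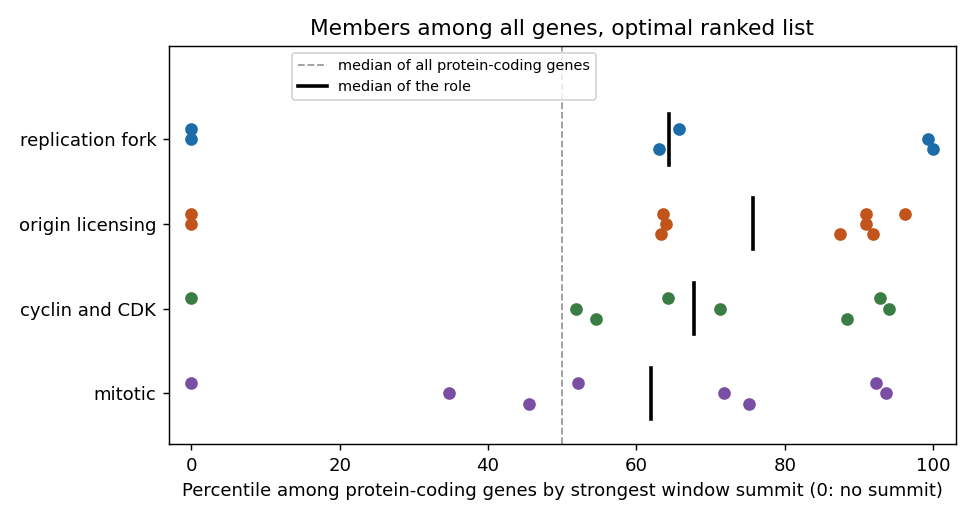
Percentile of each member among all protein-coding genes by its strongest promoter-window summit in the optimal ranked list (x axis), with 1 row per role and members without a summit at 0. Solid black bars are the medians of the roles (64.4, 75.7, 67.7 and 61.9) and the dashed line is the median of all genes; each role has members at 0 and above percentile 90.

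Among the licensing genes, mcm-4 came nearest to the threshold. It encodes a subunit of the MCM helicase, and its summit lay at −147 bp from the start. Its signal was 71.9 in the optimal ranked list, 40.2 in replicate 1 and 24.8 in replicate 2. The IDR was 0.0165 in the optimal list, 0.122 in replicate 1 and 0.638 in replicate 2. It stood at percentile 95.4 in replicate 1 and 87.4 in replicate 2. mcm-2, another helicase subunit, had 55.8 (optimal IDR 0.104), with 27.1 in replicate 1 and 31.1 in replicate 2. Its summit was at −273 bp. orc-1, a subunit of the origin recognition complex, had 53.8 (IDR 0.497), at percentile 72.7 in replicate 1 and 88.4 in replicate 2. The orc-1 summit, at −151 bp, was nearer to the start of the divergent gene dhs-11, which is 263 bp from the orc-1 start. cdc-6, a loader of the helicase, had 53.7 (IDR 0.0652), with 31.6 and 20.9. That summit lay at −687 bp, past the near end of the divergent gene acin-1, which is 378 bp from the cdc-6 start. The cdc-6 summit nearer its start, at −289 bp, had 36.6 (IDR 0.454). By their strongest summits mcm-4, mcm-2, orc-1 and cdc-6 were all above percentile 90 in the optimal ranked list. None of them passed the threshold there or in either replicate.

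The remaining licensing genes were lower. mcm-7, mcm-6 and mcm-5, which encode further helicase subunits, had 48.5, 31.9 and 31.7 in the optimal ranked list. mcm-3, another, was at percentile 64.0, beside mcm-6 at 63.6. mcm-5 had no window summit in either replicate. The 6 MCM genes thus ran between 31.7 and 71.9, and their products form 1 ring. cdt-1, which acts with CDC-6, had no window summit in any ranked list. orc-2 had no window summit in the optimal ranked list, 26.0 in the conservative one (IDR 0.827) and 15.3 in replicate 1.

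In the annotation 4 members began less than 500 bp behind a gene on the same strand: orc-2, rnr-1, mcm-4 and mcm-5. Worm genes placed this way are often transcribed from the promoter of the gene in front. orc-2 began 134 bp behind copz-1, a coatomer gene, and a peak of the optimal and conservative thresholded lists lay before copz-1 (chromosome II, 10872606 to 10872875). Its signal was 103.8 in the optimal list, and its summit was at −138 bp from copz-1 and −1190 bp from orc-2, outside the orc-2 window. In the replicates alone it had 59.0 (IDR 0.0102) and 40.4 (IDR 0.0677) and was called in neither. The peak also lay in the window of cyn-4, a cyclophilin gene. The genes in front of rnr-1, mcm-4 and mcm-5 had no promoter peak in any of the 4 thresholded lists. Whether these genes share a transcript was not tested.

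Among cyclin and CDK genes the strongest window summits were at cye-1 and cki-1. cye-1 encodes cyclin E, which acts at the start of S phase. Its window summit, at −508 bp, had 61.9 in the optimal ranked list (IDR 0.0175), 35.8 in replicate 1 (IDR 0.258) and 32.7 in replicate 2 (IDR 0.334). The divergent gene pqn-21 lay 647 bp from the cye-1 start, so this summit was nearer to the start of pqn-21. cki-1 encodes a CDK inhibitor of the p27 family. Its summit, at −420 bp, had 57.7 in the optimal ranked list (IDR 0.017). The strongest window summit had 20.6 at −488 bp in replicate 1 (IDR 0.764) and 36.0 at −437 bp in replicate 2 (IDR 0.0397). cki-1 stood at percentile 71.9 in replicate 1 and 96.4 in replicate 2, and cye-1 at 93.5 and 95.1. The conservative ranked list gave cki-1 an IDR of 0.305. Neither promoter summit passed the threshold in any of the 4 lists.

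The other genes of this role had weaker summits. cyb-1, a B-type cyclin gene, had 49.9, at percentile 65.7 in replicate 1 and 72.0 in replicate 2. cyd-1, which encodes cyclin D, had 36.0, and cdk-2 had 32.2. cyb-3, another B-type cyclin gene, had 27.2, and cdk-1, which encodes the mitotic CDK, had 25.9. The cyb-3 summit, at −959 bp, lay past the near end of the divergent gene T06E6.1, which is 734 bp from the cyb-3 start. cdk-4, the partner of cyclin D, had no window summit in the optimal ranked list, 42.5 in the conservative one and 26.8 in replicate 1. In replicate 2 alone 3 of the 8 genes had a window summit (37.5%, against 50.1% of all genes). In replicate 1 alone all 8 had one, against 47.3% of all genes. With 8 genes these counts say little about the role.

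The sole thresholded peak in the body of a member was in cye-1. Of 32 members, 1 had such a peak in the optimal list (3.12%), against 2.00% of all genes. The conservative, replicate 1 and replicate 2 lists gave 0 of 32, against 1.72%, 0.841% and 0.611% of all genes. In the ranked lists a body summit was found in 30, 29, 28 and 28 members in the optimal, conservative, replicate 1 and replicate 2 lists, against 75.2%, 74.2%, 61.9% and 65.3% of all genes. The bodies of the members were longer, with a median of 2910 bp against 2030 bp for all genes. The cye-1 peak (chromosome I, 6781679 to 6781948) had a signal of 78.0, ranked 924 of 1200, and lay in an intron 1015 bp downstream of the start. Its signal was 51.7 in replicate 1 (IDR 0.0113) and 28.9 in replicate 2 (IDR 0.205). It was not in the conservative list or in either replicate list. The summit lay inside a tRNA gene of that intron (WBGene00022955, 6781803 to 6781874), and its part in the peak was not tested. In the ranked list, rpa-2 had the next lowest IDR in a body, at 776 bp downstream (66.0, IDR 0.0335). At an IDR of 0.05 or less these 2 genes had a body peak, against 4.74% of all genes.

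Of the mitotic genes, fzr-1 and bub-1 had the strongest window summits. fzr-1 encodes the Cdh1 activator of the anaphase-promoting complex. Its summit lay 67 bp downstream of the start, with 60.5 in the optimal ranked list (IDR 0.261), 30.6 in replicate 1 and 27.6 in replicate 2. bub-1, a checkpoint kinase gene, had 56.5 (IDR 0.144), with its summit 33 bp upstream. It had 38.2 in replicate 1, at −128 bp, and 19.6 in replicate 2, at −32 bp. plk-1, the Polo kinase gene, had 38.3, and air-1, the Aurora A gene, had 36.4. The air-1 summit, at −873 bp, lay past the near end of the divergent gene cogc-6, which is 171 bp from the air-1 start. wee-1.3, which encodes a kinase that inhibits CDK-1, had 26.0. cdc-25.1, which encodes a phosphatase that activates CDKs, had 4.1, the lowest of all members with a summit in that list. fzy-1, which encodes the Cdc20 activator, had 22.2, and its annotated start lies inside the gene F12A10.8. air-2, the Aurora B gene, had none in the optimal ranked list, 44.2 in the conservative one (IDR 0.315), and percentile 87.9 in replicate 2.

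**Figure D4:**
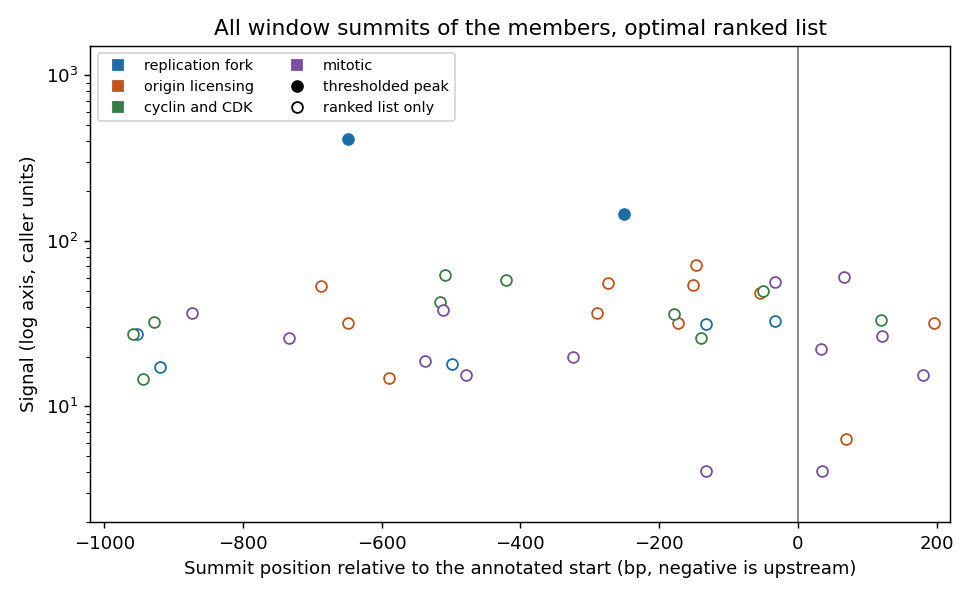
All 41 window summits of the 26 members with one in the optimal ranked list, by position relative to the annotated start (x axis, bp) and signal (y axis, log scale, peak caller's units). The filled points are the thresholded peaks of rpa-2 at −648 bp and pcn-1 at −250 bp; 33 of the 41 summits lie upstream and 8 at or beyond the start.

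The authors' limit on the IDR fell between the following member peaks. The weakest thresholded peak at a member was the cye-1 intron peak, at 78.0 with an IDR of 0.00597. The nearest below it were mcm-4 at 71.9, cki-1 at 57.7 and the cye-1 promoter summit at 61.9, with IDRs of 0.0165, 0.017 and 0.0175. With every peak of the optimal ranked list at an IDR of 0.05 or less, 5 of 32 members had a promoter peak (15.6%), against 5.62% of all genes. The 5 were rpa-2, pcn-1, mcm-4, cye-1 and cki-1. This limit was chosen after the data were seen.

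The number of promoters with an E2F/DP motif differed between the roles. In the 300 bases from 250 upstream to 50 downstream of the start, GCGGGAA or GCGCGAA on either strand was found in 14 of 32 members (43.8%), against 5.02% of all 19973 promoters. By role it was found in 5 of 6 fork, 7 of 10 licensing, 2 of 8 cyclin and CDK, and 0 of 8 mitotic genes. The cyclin and CDK genes were cdk-2 and cyd-1. TTTGAA was found in 25 members (78.1%, against 62.5%), TTCGAA in 9 (28.1%, against 18.2%), GAGAGA in 7 (21.9%, against 21.8%) and TATAAA in 8 (25.0%, against 37.9%). The median GC content was 37.8% in member promoters and 34.3% in all promoters, and the shares were not matched for it. A match is a run of letters and does not show that a factor was bound.

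ChIP signals of members with and without an E2F/DP match overlapped. Of the 14 members with an E2F/DP match, 11 had a window summit in the optimal ranked list, with signals of 31.6 at the lowest, 48.5 at the median and 409.0 at the highest. Of the 18 without one, 15 had a window summit, with 4.1, 36.4 and 61.9. The overlap thus ran from 31.6 to 61.9, with rpa-2, pcn-1 and mcm-4 above it and cdk-1, cyb-3, wee-1.3, fzy-1 and cdc-25.1 below it. Genes above it have a match and genes below it have none by the way its limits are set. At pcn-1 the matches were at −212 and −188 bp from the start, within the peak. At rpa-2 the match was at −231 bp, and the 300 bases round the summit held none. cye-1, at 61.9, counts as without a match, but the 300 bases round its summit at −508 bp held one. Of the 26 members with a window summit, 9 had a match in the 300 bases round the strongest one. The share round the strongest window summits of all genes was not counted. rpa-1, div-1 and cdt-1 had a match and no window summit in the optimal ranked list. Over the 1200 optimal peaks, 9.67% held either motif in the 300 bases round the summit, and 42.8% held GAGAGA.

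Other genes of the same pathways were then counted from a separate list of 99, of which 93 were matched. In the optimal list 13 of the 93 had a promoter peak, against 3.32% of all genes. These genes were 5 of 23 fork genes, 0 of 8 licensing genes, 2 of 13 cyclin and CDK genes and 6 of 49 mitotic genes. Together with the members, the licensing genes had 0 thresholded promoter peaks in this list among 10 and 8 genes. At a background of 3.32% a count of 0 in so few genes still says little about licensing genes. The 13 peaks had a lowest signal of 81.9, a median of 99.4 and a highest of 182.6, below the 409.0 of rpa-2. Called in both replicates were 3, in 1 replicate 3 and in neither 7. In the optimal ranked list 83.9% of the 93 had a window summit, against 81.2% of the members. All 4 ranked lists held one for 58.1%, against 43.8% of the members. The median percentile of the 93 was 79.4, against 65.0 for the members, and 31.2% of either set were at or above percentile 90. The high ranks were thus not particular to the members.

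The 5 fork genes were clsp-1, ctf-4, rfc-4, tim-1 and psf-1. clsp-1 encodes claspin, which links the fork to the replication checkpoint, and had 182.6 in the optimal list, 119.8 in replicate 1 and 61.8 in replicate 2. Its summit lay 259 bp upstream of clsp-1 and 6 bp upstream of eef-2, a translation elongation factor gene. ctf-4, a scaffold of the replisome, had 145.2, with 83.0 and 54.6 in replicates 1 and 2, and its summit was 19 bp upstream of eef-1G. rfc-4, a subunit of the clamp loader, had 111.8, with 71.6 and 37.8, in the window of eef-1A.1 as well. These 3 fork genes thus shared their peaks with a translation elongation gene, and the nearest start was that of the elongation gene at clsp-1 and ctf-4.

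tim-1, which encodes the fork protein Timeless, had 101.2, with a summit inside the snRNA gene sls-2.8. psf-1, a subunit of the GINS complex, had 89.9, with a summit inside the noncoding genes R53.9 and R53.11. Of the 13 promoter peaks in all, 11 also lay in the window of another protein-coding gene, and 5 lay within 200 bp of a noncoding gene. When each summit was given to the nearest protein-coding start only, rpa-2 and pcn-1 kept their peaks (2 of 32), against 2.48% of all genes. Of the 93 other genes, 7 kept a peak (7.53%). Those that lost it, each with another protein-coding start nearer to the summit, were clsp-1, ctf-4, tim-1, sas-4, spd-1 and smc-3.

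The cyclin and CDK genes of that list with a peak were lin-35, which encodes the worm Rb protein (89.1), and cdk-7, which encodes a CDK-activating kinase (81.9). The mitotic genes were sas-4, a centriole gene (126.4), zen-4, a kinesin gene of the central spindle (107.7), smc-3 of cohesin (99.4), spd-1, a spindle bundling gene (97.9), zyg-1, a centriole kinase gene (84.0), and knl-1 of the kinetochore (83.9). sas-4 was called in both replicates and zen-4 in replicate 2 alone, and smc-3, spd-1, zyg-1, knl-1, lin-35 and cdk-7 in neither. The spd-1 and cdk-7 peaks overlapped no peak of the replicate 2 ranked list and were not in the conservative list. pola-1, which encodes the catalytic subunit of DNA polymerase alpha, had a promoter peak in the conservative list alone (76.7). Body peaks lay in cdk-7, where it is the same peak, mdf-2 (81.5, inside a tRNA gene), spd-5 (153.6) and mix-1 (135.6).

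**Figure D5:**
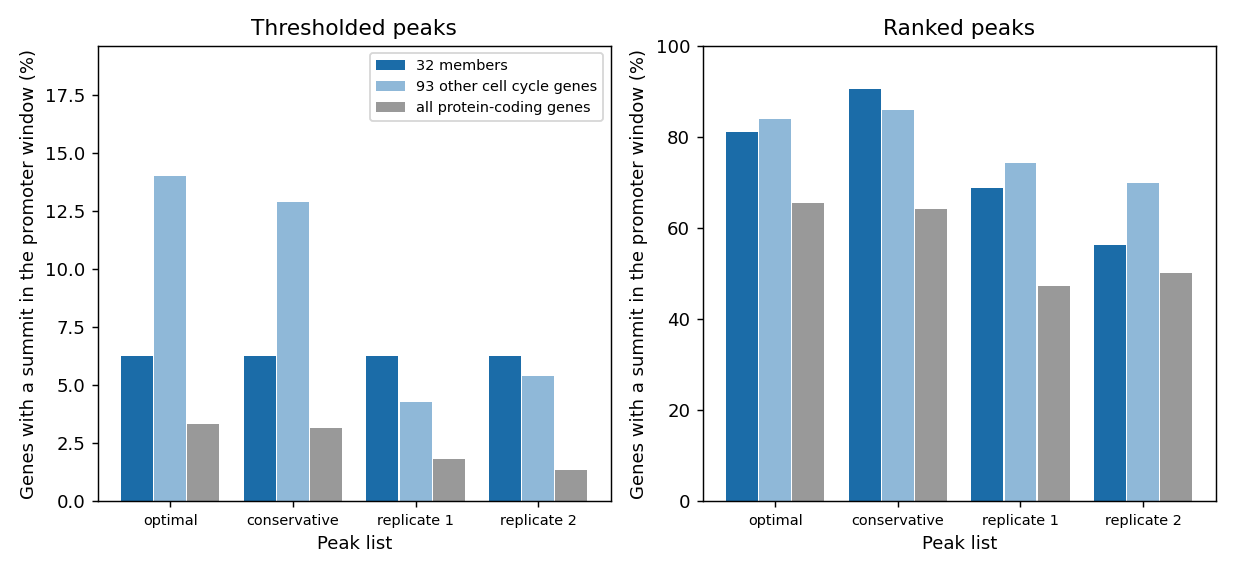
Percent of genes with a summit in the promoter window in each thresholded list (left) and each ranked list (right), for the 32 members, 93 other cell cycle genes and all protein-coding genes. The members hold 6.25% in all 4 thresholded lists, against 3.32, 3.16, 1.83 and 1.35% of all genes.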

How the data were processed

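ChIP-seq for EGFP-tagged LET-526 was analysed in 2 biological replicates of 1 group. Peaks were on ce11 and were derived from the alignments of 1 or both replicates, per the notes deposited with the files. Which caller and aligner were run is not given in the sources used here. Each peak's deposited signal is the caller's own value. The deposited score is at most 1000 and at least 830 in the thresholded lists. In the ranked lists the authors give the IDR as −log10. The ranked list that held every optimal peak was taken as the optimal one. Its peaks that met the score limit and were not in the thresholded list numbered 125, of which 0 lay at a member.

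Genes were from Ensembl release 115 (WBcel235), with sequences from RefSeq for the same build. All peaks lay within those chromosomes. The members and lists were chosen with earlier results of these data known, so no list test was made. Every member was accounted for; called members, the 8 uncalled members with the highest percentiles, members with no window summit and other cell cycle genes with a promoter peak were named. The remaining members were also given values, a choice made after these were seen. Motifs were searched in windows cut from the genome at Ensembl starts. The calling rule was tested on simulated summits. Python 3.11.15, pandas 2.3.3, NumPy 2.4.6 and SciPy 1.17.1 were used. Peaks were also called on each replicate alone, on conservative peaks, above the median signal, by any overlap, with other windows, with any transcript start and with the nearest start only. Whether the replicates came from separate cultures is given by the word biological in the labels alone.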

Additional observations from a re-analysis of the deposited data

How the results depend on the processing

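No paired analysis was possible because there was 1 group. Leaving out either replicate gave 2 members with a promoter peak each time, 0 with a body peak each time, and 4 to 5 other cell cycle genes with a promoter peak, against 13 with both. Of all genes, 1.83% had a promoter peak without replicate 2 and 1.35% without replicate 1. The ranked list of 1 replicate gave 18 to 22 members with a promoter peak and a median percentile of 66.2 to 69.7, against 65.0. The conservative comparison gave a median percentile of 71.5. The conservative list and peaks above the median signal left 0 members with a body peak, against 1.72% and 0.841% of all genes. Peaks above the median left 8 other cell cycle genes with a promoter peak, against 2.09% of all genes. A window of 500 bp upstream and 100 bp downstream left 1 member, in the fork role, because rpa-2 fell outside it. Of all genes 2.48% had a peak in that window. A window of 2000 bp upstream brought in 1 licensing gene, orc-2, through the copz-1 peak, and 4.58% of all genes had a peak in it. The nearest protein-coding start only left 7 other genes, against 2.48% of all genes. In the optimal ranked list the shorter window gave 18 members with a summit, against 26. The share of all genes with a ranked summit in it is not given here. At an IDR of 0.05 or less, chosen after the data were seen, 5 members had a promoter peak, 2 had a body peak, and 21 other genes had a promoter peak. Of all genes 5.62% then had a promoter peak and 4.74% a body peak. The depth of the libraries is unknown, so a member without a peak may lie below what these lists can show. No replicated test was made, and the counts of members are small.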
